A study of Mus musculus with 6 samples.

Results

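The 9 genes described here are Acta2, Tagln, Pdgfra, Pdgfrb, Fn1, Tgfb1, Tgfb2, Ctgf and Postn, a set that joins genes used to recognise myofibroblasts with transforming growth factor beta (TGF-beta) signals. They were chosen by symbol, and all 9 were found among the 54146 genes of each deposited count file. Messenger RNA was sequenced from whole kidneys of B6C3F1/J mice aged 12 weeks (postnatal day 84). There were 3 libraries labelled KspCre Tfam f/f and 3 labelled Tfam f/f. Mice of both labels carry the floxed Tfam allele, and by their label those named Tfam f/f lack Cre. Ksp-Cre is driven by the promoter of Ksp-cadherin, which is active in kidney tubule epithelium, so the stromal cells that usually express most of these 9 genes are not its target. Whether each library is a different animal is not given in the sources used here. The p-values therefore describe the variation among these libraries, which may be technical.

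TGF-beta is secreted in a latent complex that is held by binding proteins in the matrix and released by integrins and proteases. The free ligand binds a pair of receptor kinases that phosphorylate SMAD proteins, and these enter the nucleus and switch on genes for matrix and for the signal's own inhibitors. In kidney fibrosis, pericytes and fibroblasts that carry platelet-derived growth factor (PDGF) receptors can become myofibroblasts, contractile cells that make smooth muscle actin and lay down fibronectin, periostin and collagen. Injured tubule cells are known as a source of TGF-beta and of connective tissue growth factor, the product of Ctgf.

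The gene targeted in this study went against the labels, so each direction below is between labels and not between known genotypes. Tfam stood at 63.1, 63.5 and 61.4 CPM (counts scaled to a common library size, normalized) in libraries labelled KspCre Tfam f/f, against 30.3, 33.6 and 23.2 where the label was Tfam f/f. Tfam was thus higher in every library labelled as carrying Cre. The names of the deposited files also run against the labels, with the letters WT on the files of all libraries labelled KspCre Tfam f/f, so the labels of the groups may be exchanged, which was not tested. Library totals over genes ran from 30348281 to 48899266 counts for the KspCre Tfam f/f label and from 19024208 to 34821537 for the Tfam f/f label. The 3 libraries labelled Tfam f/f differed more among themselves, and replicate 3 had the highest and replicate 2 the lowest summed tubular injury markers. A large part of the transcriptome differed between the labels. Of 17308 tested genes, 46.2% were called at a Benjamini-Hochberg adjusted p below 0.05 in edgeR's quasi-likelihood test, 21.3% (3690 genes) as higher and 24.9% (4310) as lower with the KspCre Tfam f/f label. Scaling by total counts alone gave 1680 higher and 8519 lower.

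All 9 genes passed the filter on low counts, and 4 of them were called, which is close to the share over all tested genes. Tgfb1, Tgfb2, Fn1 and Postn fell in libraries labelled KspCre Tfam f/f, while 0 of the 9 were called higher. Acta2, Tagln, Pdgfra, Pdgfrb and Ctgf were not called. In normalized CPM, 5 of the 9 had groups that did not overlap, all lower in libraries labelled KspCre Tfam f/f. Over all tested genes, groups did not overlap for 61.9%, with 29.8% higher and 32.1% lower there. The median log2 fold change of the 9 genes was -0.26, beside -0.03 over all tested genes. Each fold change divides the level in KspCre Tfam f/f labelled libraries by that in Tfam f/f labelled ones, and SE is its standard error on the log2 scale.

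**Figure D1:**
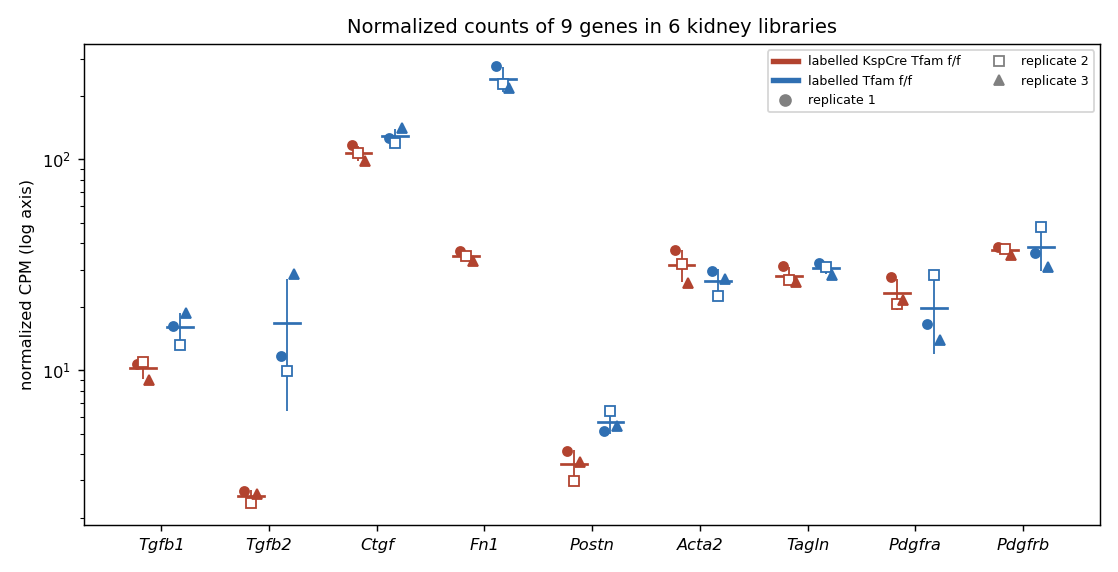
Normalized CPM on a log axis of the 9 genes in each library, with libraries labelled KspCre Tfam f/f (red) left of those labelled Tfam f/f (blue). Horizontal bars are means, vertical bars are 1 SD, and n = 3 each. The groups of Fn1 lie far apart, at 33.0 to 36.7 in libraries labelled KspCre Tfam f/f, against 218 to 277 in those labelled Tfam f/f, while those of Acta2, Tagln, Pdgfra and Pdgfrb overlap.

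Of the TGF-beta ligand genes among the 9, Tgfb2 had the larger fold change and Tgfb1 the smaller. Tgfb1 (ENSMUSG00000002603.15, chromosome 7, 25687002 to 25705077 on the plus strand of mm10) encodes the most studied TGF-beta isoform. It had 10.7, 11.0 and 8.97 normalized CPM in libraries labelled KspCre Tfam f/f, against 16.3, 13.2 and 18.6 in those labelled Tfam f/f. Every library labelled KspCre Tfam f/f was below every library labelled Tfam f/f. The means came to 10.2 ± 1.08 with the KspCre Tfam f/f label and 16.01 ± 2.72 with the Tfam f/f label (SD, n = 3 each), a 1.56-fold lower level (log2 fold change -0.65, SE 0.16, adjusted p = 0.0139). This call did not hold without labelled KspCre Tfam f/f replicate 3 (1.47-fold, adjusted p = 0.0624).

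Tgfb2 (ENSMUSG00000039239.14, chromosome 1, 186622792 to 186705989 on the minus strand) encodes the isoform best known from embryonic development. Its values were 2.68, 2.34 and 2.59 normalized CPM in libraries labelled KspCre Tfam f/f, against 11.7, 9.90 and 28.6 in those labelled Tfam f/f. The groups did not overlap, and labelled Tfam f/f replicate 3 stood above the other two of its group. The mean was 2.54 ± 0.174 with the KspCre Tfam f/f label against 16.7 ± 10.3 with the Tfam f/f label (SD, n = 3 each), and Tgfb2 was 6.57-fold lower (log2 fold change -2.72, SE 0.41, adjusted p = 0.00249). Leaving out labelled Tfam f/f replicate 3 gave a 4.26-fold lower level (adjusted p = 0.000118). That library also had the highest sums of tubular injury markers and of macrophage markers, given below, and their part in the Tgfb2 difference was not tested.

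The balance of the isoforms was compared within each library, which needs no scaling between libraries. The log2 ratio of Tgfb2 to Tgfb1 counts was -1.99, -2.22 and -1.78 in libraries labelled KspCre Tfam f/f, against -0.47, -0.41 and 0.62 in those labelled Tfam f/f. Labelled Tfam f/f replicate 3 was the one library with more Tgfb2 than Tgfb1 counts. The mean ratio differed by -1.91 on the log2 scale, and a two-sided exact permutation test gave p = 0.1, the smallest that 3 against 3 libraries allow (0.133 after adjustment over the 4 pairs of members compared).

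The sequences just before the start sites of the called genes are shown for Tgfb1, Tgfb2 and Postn, which were all lower in the same libraries. Each is the 250 bases upstream of the RefSeq start on GRCm38.p6, 5′ to 3′ on the gene's strand, from a table that held 5 of the 9 genes (Fn1 was not among them). Capitals mark matches on either strand to the TATA box TATAAA, the E-box CACGTG or the GC box CCGCCC.
Tgfb1, chr7:25686752-25687001, plus strand: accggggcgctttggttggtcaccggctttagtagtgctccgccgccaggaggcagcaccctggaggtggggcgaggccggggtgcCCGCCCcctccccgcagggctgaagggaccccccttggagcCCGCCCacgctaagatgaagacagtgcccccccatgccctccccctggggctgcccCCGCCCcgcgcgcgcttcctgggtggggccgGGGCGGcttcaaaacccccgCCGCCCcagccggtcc
Tgfb2, chr1:186705990-186706239, minus strand: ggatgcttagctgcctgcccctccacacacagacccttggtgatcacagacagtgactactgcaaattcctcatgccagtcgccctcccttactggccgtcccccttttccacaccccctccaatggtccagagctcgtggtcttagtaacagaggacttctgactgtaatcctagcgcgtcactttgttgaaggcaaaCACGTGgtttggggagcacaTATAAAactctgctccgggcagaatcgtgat
Postn, chr3:54360857-54361106, plus strand: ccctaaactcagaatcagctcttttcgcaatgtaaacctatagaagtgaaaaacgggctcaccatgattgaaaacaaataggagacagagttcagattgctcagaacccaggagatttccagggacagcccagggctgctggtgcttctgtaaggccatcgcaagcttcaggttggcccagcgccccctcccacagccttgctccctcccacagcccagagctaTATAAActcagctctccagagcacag
The Tgfb1 window held 5 GC boxes and no match to the TATA or E-box letters, and 75.2% of its bases were G or C. The Tgfb2 window held a TATA box 31 to 26 bases and an E-box 51 to 46 bases before the start, with 53.6% G or C. The Postn window held a TATA box 26 to 21 bases before the start, with 52.0% G or C. Over 32851 promoter windows of the same length, 12.4% held TATAAA, 6.02% CACGTG and 32.7% CCGCCC on either strand, and the median share of G or C was 52.4%. A match is a description of the letters and not a measured binding site.

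Ctgf, the most abundant of the 9 genes per length in both groups, differed little. Ctgf (ENSMUSG00000019997.11, chromosome 10, 24595442 to 24598683 on the plus strand) encodes a matricellular protein that TGF-beta and the YAP coactivator are known to induce. It had 116, 107 and 98.7 normalized CPM in libraries labelled KspCre Tfam f/f, against 126, 119 and 141 in those labelled Tfam f/f. The groups did not overlap, but the gap between them was small. The log2 fold change was -0.26 (SE 0.11, adjusted p = 0.0913), with an interval of 2 SE from -0.49 to -0.04. It was called with upper-quartile scaling (log2 fold change -0.34, adjusted p = 0.0449). An antisense transcript shares 23.2% of the exon length of Ctgf. It was counted at 23 to 38 reads in libraries labelled KspCre Tfam f/f, against 30 to 34 in those labelled Tfam f/f. Ctgf itself had 2586 to 4959 reads with the KspCre Tfam f/f label, against 3359 to 4519 with the Tfam f/f label.

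Of the matrix genes, Fn1 had a fold change close to that of Tgfb2, and the order of both turned without labelled Tfam f/f replicate 1 or 2. Fn1 (ENSMUSG00000026193.15, chromosome 1, 71585520 to 71653200 on the minus strand) encodes fibronectin, the fibrous glycoprotein to which fibroblasts and epithelial cells attach through integrins. It had 36.7, 34.8 and 33.0 normalized CPM in libraries labelled KspCre Tfam f/f, against 277, 228 and 218 in those labelled Tfam f/f. The libraries of each label were close together, and the gap between labels was many times their spread. The means of 34.8 ± 1.86 with the KspCre Tfam f/f label and 241 ± 31.8 with the Tfam f/f label (SD, n = 3 each) give a 6.92-fold lower level (log2 fold change -2.79, SE 0.13, adjusted p = 3.08e-05). Within the libraries labelled Tfam f/f, Fn1 did not follow Tgfb2. Replicate 3 was the highest of them for Tgfb2 and the lowest for Fn1.

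Postn (ENSMUSG00000027750.16, chromosome 3, 54361109 to 54391037 on the plus strand) encodes periostin, a matricellular protein of activated fibroblasts that binds integrins. Its values were 4.16, 2.97 and 3.66 normalized CPM in libraries labelled KspCre Tfam f/f, against 5.14, 6.43 and 5.41 in those labelled Tfam f/f. The groups did not overlap in normalized CPM. They rest on 96 to 177 reads with the KspCre Tfam f/f label and 129 to 244 with the Tfam f/f label. Postn was 1.58-fold lower (log2 fold change -0.66, SE 0.19, adjusted p = 0.0270). The call did not hold without labelled KspCre Tfam f/f replicate 2 or 3 (adjusted p = 0.116 and 0.0866), without labelled Tfam f/f replicate 2 (0.0609), and with the replicate number as a block (0.0644).

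The fold change of Postn was smaller than that of Fn1. The log2 ratio of Postn to Fn1 counts was -3.14, -3.54 and -3.16 in libraries labelled KspCre Tfam f/f, against -5.75, -5.15 and -5.33 in those labelled Tfam f/f. The ratios of the groups did not overlap. The difference of 2.12 on the log2 scale had an exact permutation p of 0.1 (0.133 after adjustment over the 4 pairs).

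The contractile genes that define a myofibroblast in tissue sections were not called in either direction. Acta2 (ENSMUSG00000035783.8, chromosome 19, 34241090 to 34255590 on the minus strand) encodes alpha smooth muscle actin, which vascular smooth muscle and myofibroblasts share. It had 37.2, 31.8 and 26.02 normalized CPM in libraries labelled KspCre Tfam f/f, against 29.6, 22.5 and 27.2 in those labelled Tfam f/f. The ranges overlapped, and the lowest library labelled KspCre Tfam f/f lay below 2 of those labelled Tfam f/f. The log2 fold change was 0.27 (SE 0.16, adjusted p = 0.198) with an interval of 2 SE from -0.05 to 0.58, and it turned to -0.17 when libraries were scaled by total counts alone. Actin genes are close in sequence, and how reads matching several of them were counted is not given in the sources used here, so the level of Acta2 is uncertain.

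Tagln (ENSMUSG00000032085.5, chromosome 9, 45929619 to 45936058 on the minus strand) encodes transgelin, an actin-binding protein of smooth muscle. It had 31.1, 26.9 and 26.3 normalized CPM in libraries labelled KspCre Tfam f/f, against 32.2, 30.8 and 28.4 in those labelled Tfam f/f. The groups overlapped. The log2 fold change was -0.12 (SE 0.10, adjusted p = 0.385), and the interval of 2 SE ran from -0.32 to 0.09. An antisense gene shares 62.4% of the exon length of Tagln. It was counted at 44 to 89 reads in libraries labelled KspCre Tfam f/f, against 65 to 69 in those labelled Tfam f/f, and the strand setting of the counting is not given in the sources used here, so the level of Tagln is uncertain.

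The log2 ratio of Tagln to Acta2 counts was -0.26, -0.24 and 0.01 in libraries labelled KspCre Tfam f/f, against 0.12, 0.45 and 0.06 in those labelled Tfam f/f. The groups did not overlap, with the nearest libraries close together. The difference of -0.37 had an exact permutation p of 0.1 (0.133 after adjustment).

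Both PDGF receptor genes overlapped between the labels, and 1 library decided where Pdgfra lay. Pdgfra (ENSMUSG00000029231.15, chromosome 5, 75152292 to 75198215 on the plus strand) encodes the receptor carried by fibroblasts. It had 27.8, 20.5 and 21.4 normalized CPM in libraries labelled KspCre Tfam f/f, against 16.6, 28.3 and 13.9 in those labelled Tfam f/f. Labelled Tfam f/f replicate 2 was the highest of all 6 libraries and the other two of its group were the lowest. The log2 fold change was 0.24 (SE 0.26, adjusted p = 0.480), with an interval of 2 SE from -0.29 to 0.77, and it turned to -0.17 with scaling by total counts alone. Without labelled Tfam f/f replicate 2, Pdgfra was called 1.55-fold higher (adjusted p = 0.0219). The same library had 9.43 normalized CPM of the adipocyte gene Adipoq, above every other library, and the highest sums of endothelial and fibroblast markers of its group. The part of these cells in the Pdgfra value was not tested.

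Pdgfrb (ENSMUSG00000024620.11, chromosome 18, 61045150 to 61085061 on the plus strand) encodes the receptor carried by pericytes, mesangial cells and fibroblasts. It had 38.3, 37.4 and 35.2 normalized CPM in libraries labelled KspCre Tfam f/f, against 36.1, 48.0 and 30.8 in those labelled Tfam f/f. The libraries labelled KspCre Tfam f/f lay inside the range of those labelled Tfam f/f, where replicate 2 was again the highest. The log2 fold change was -0.05 (SE 0.16, adjusted p = 0.799), with an interval of 2 SE from -0.37 to 0.26, and without labelled Tfam f/f replicate 2 it was 0.17 (adjusted p = 0.215). The log2 ratio of Pdgfra to Pdgfrb counts differed by 0.33 between labels (exact permutation p = 0.2, also 0.2 after adjustment over the 4 pairs).

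**Figure D2:**
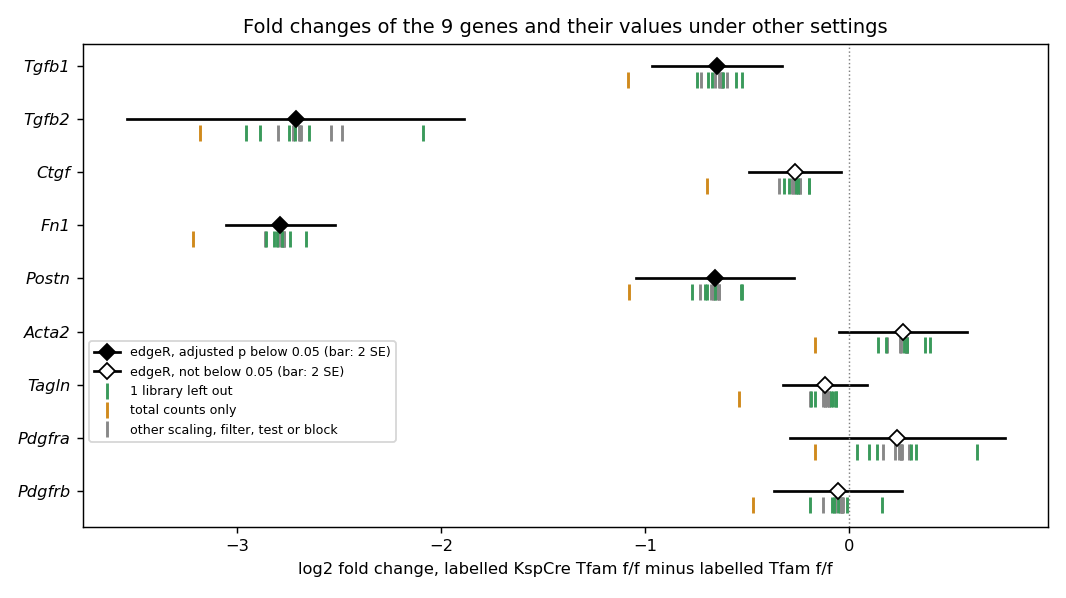
Log2 fold change (KspCre Tfam f/f labelled minus Tfam f/f labelled libraries) of each gene, with bars of 2 SE and filled symbols for an adjusted p below 0.05. Ticks below each gene are values with 1 library left out (green), scaling by total counts alone (orange) and the other alternatives (grey). Fn1 and Tgfb2 stay below -2 throughout, while Acta2 and Pdgfra change sign when libraries are scaled by total counts alone and Pdgfrb when labelled Tfam f/f replicate 2 is left out.

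Levels of different genes were compared as normalized CPM per kilobase of merged exons. Ctgf was highest in both groups, at 37.5 ± 3.12 in libraries labelled KspCre Tfam f/f, against 45.0 ± 3.91 in those labelled Tfam f/f (SD, n = 3 each). In libraries labelled KspCre Tfam f/f it was followed by Acta2 (14.4 per kilobase) and Tagln (14.1), which overlapped, then by Pdgfrb (6.75), Fn1 (2.98), Pdgfra (2.32) and Tgfb1 (2.02), of which Pdgfra and Tgfb1 overlapped. Tgfb2 (0.438) and Postn (0.413) were lowest and overlapped. In the libraries labelled Tfam f/f, Fn1 (20.6 per kilobase) stood directly after Ctgf, above Tagln (15.3) and Acta2 (12.0). After Pdgfrb (6.99), Tgfb1 (3.18) overlapped with Tgfb2 (2.89), and Tgfb2 with Pdgfra (1.96), and Postn (0.651) was lowest and apart. Fn1 was thus the fifth of the 9 genes with the KspCre Tfam f/f label and the second with the Tfam f/f label, both with merged exons and with the length of the longest transcript. With the longest transcript the order changed in 3 neighbouring pairs in libraries labelled KspCre Tfam f/f, each of them a pair whose libraries overlapped.

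**Figure D3:**
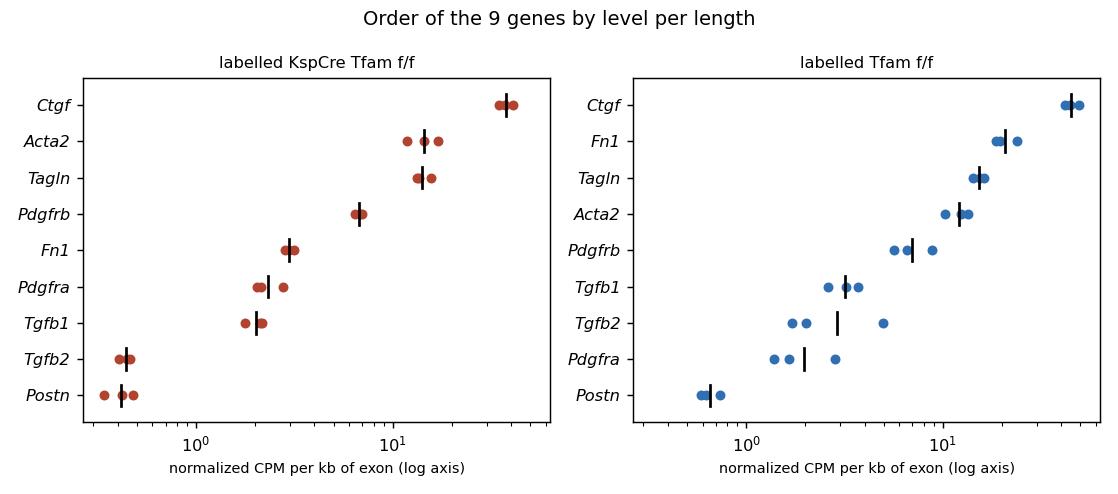
Normalized CPM per kilobase of merged exons (log axis) of the 9 genes, ordered by their mean, in libraries labelled KspCre Tfam f/f (left) and those labelled Tfam f/f (right). Points are libraries and black bars are means (n = 3 each). Fn1 is the fifth on the left, at 2.98, and the second on the right, at 20.6.

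The wider pathway was read from gene lists by role, with the 9 genes left out. The lists were chosen with earlier results of these data known, so their counts are descriptions and not tests. Over all tested genes, 21.3% were called higher and 24.9% lower. Some genes stand in more than 1 list. Scaling by total counts alone moved the higher and lower counts given below, to 2 and 10 for ligands and activation, 1 and 9 for receptors and SMADs, 0 and 12 for response genes, 0 and 3 for PDGF ligands, 1 and 9 for matricellular genes, 0 and 6 for receptors of fibronectin and periostin, 0 and 10 for fibroblast markers, 1 and 0 for podocyte markers, 1 and 13 for YAP targets, 1 and 3 for contractile genes, and 4 and 3 for mural markers. In bulk kidney, fewer cells of a type and less RNA per cell cannot be told apart, which applies to every list here. Of 14 genes that store and release TGF-beta, 4 were called higher and 6 lower in libraries labelled KspCre Tfam f/f (median log2 fold change -0.41, beside -0.03 over all tested genes). The latent binding proteins went both ways. Ltbp3 was 3.94-fold lower (adjusted p = 0.000336) and Ltbp1 2.28-fold higher (0.00204). Ltbp2 was 21.1-fold lower (0.00368), a value that became 10.1-fold when labelled Tfam f/f replicate 3 was left out. Furin, the protease that cuts the TGF-beta precursor, was 1.82-fold higher (0.00401). The 6 lower calls became 2 if replicate 1 or 2 of the KspCre Tfam f/f label was left out. The 4 higher calls became 2 when any 1 library but labelled Tfam f/f replicate 2 or 3 was left out. The third ligand gene, Tgfb3, had 1.59 to 2.17 normalized CPM in libraries labelled KspCre Tfam f/f, against 1.62 to 3.74 in those labelled Tfam f/f, and was not called (adjusted p = 0.240).

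Receptors, SMADs and their regulators were mostly not called. Of 17 genes, 2 were higher and 3 lower in libraries labelled KspCre Tfam f/f, and the median log2 fold change was -0.03. The 2 higher calls became 1 when any 1 library but labelled Tfam f/f replicate 2 or 3 was left out, and the 3 lower calls became 5 without labelled Tfam f/f replicate 2. Tgfbr2, the ligand-binding receptor, had 84.4, 88.8 and 92.3 normalized CPM in libraries labelled KspCre Tfam f/f, against 154, 147 and 149 in those labelled Tfam f/f (1.70-fold lower, adjusted p = 0.00104). Its partner Tgfbr1 had 69.3 to 77.4 in libraries labelled KspCre Tfam f/f, against 53.0 to 83.1 in those labelled Tfam f/f, and was not called (0.615). The related ubiquitin ligases Smurf1 and Smurf2, which remove receptors and SMADs, moved in opposite directions, 1.73-fold lower (0.00265) and 1.78-fold higher (0.00339). Tgif1, a repressor of SMAD-driven transcription, was 3.33-fold lower (0.00350). The main signal carriers Smad2, Smad3 and Smad4 and the inhibitor Smad7 were not called, with adjusted p of 0.255, 0.0536, 0.231 and 0.0668.

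Most of the listed genes known to respond to TGF-beta were lower in libraries labelled KspCre Tfam f/f, in a list chosen with earlier results known. Of 18, 11 were lower, 2 were higher and 5 were not called, with a median log2 fold change of -1.22. Over all tested genes, 24.9% were lower and 21.3% higher. The count of lower genes stayed between 10 and 12 when each library was left out in turn. Cdkn2b, a cell cycle inhibitor, was 11.0-fold lower (adjusted p = 0.000561), Tgfbi, a matrix adhesion protein, 2.396-fold (0.00215), and Bmp1, the protease that trims procollagen, 2.33-fold (0.00228). Higher genes were the oxidase gene Nox4 (1.87-fold, 0.0491) and the crosslinking enzyme gene Tgm2 (1.32-fold, 0.0225). Both calls were lost when any 1 library with the KspCre Tfam f/f label was left out and without labelled Tfam f/f replicate 1, and that of Nox4 also without labelled Tfam f/f replicate 3. The summed level of the list overlapped between the labels. It was 890 to 924 normalized CPM in libraries labelled KspCre Tfam f/f, against 882 to 1186 in those labelled Tfam f/f. The sum of tubular injury markers did not overlap. That sum was 834 to 897 in libraries labelled KspCre Tfam f/f, against 3112 to 13201 in those labelled Tfam f/f. Of the 9 injury markers, 0 were called higher and 8 lower, and the part of injury in this list was not tested.

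**Figure D4:**
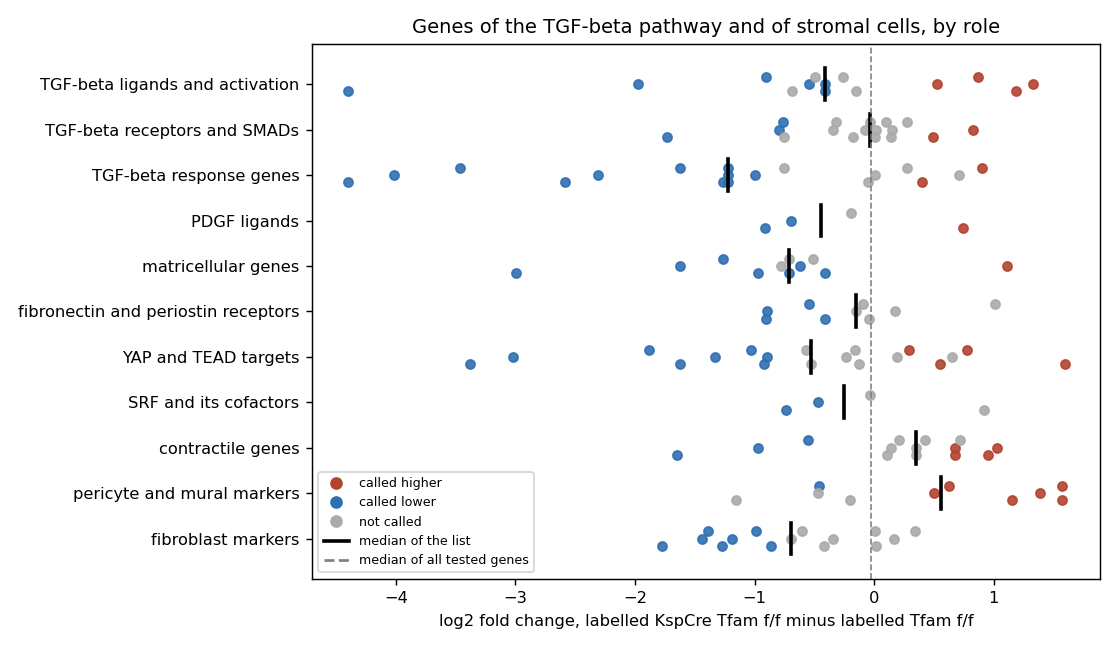
Log2 fold change (KspCre Tfam f/f labelled minus Tfam f/f labelled libraries) of every tested gene in lists by role, coloured by the edgeR call. Black bars are list medians and the dashed line is the median of all tested genes, -0.03. The list of response genes has its median at -1.22, while pericyte and mural markers have theirs at 0.56. The lists were chosen with earlier results of these data known.

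Among PDGF ligands, Pdgfc was 1.67-fold higher in libraries labelled KspCre Tfam f/f (adjusted p = 0.00841), and Pdgfa and Pdgfb, the ligand of the pericyte receptor, were 1.62-fold and 1.88-fold lower (0.0288 and 0.0424). The calls of both lower genes were lost when any 1 library with the KspCre Tfam f/f label was left out, and that of Pdgfa also without labelled Tfam f/f replicate 1 or 3. Pdgfd was not called (0.360). With total counts alone, none of the PDGF ligands was called higher.

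Matricellular genes resembled Postn in direction, with 7 of 11 tested genes lower, Ecm1 higher (2.16-fold, adjusted p = 0.00162) and 3 not called. Sparc, a collagen-binding protein, was 1.63-fold lower (0.00276). Spp1, which encodes osteopontin and is also an injury marker, was 7.98-fold lower (0.00442), or 4.62-fold when labelled Tfam f/f replicate 3 was left out. The 7 fell to 4 without labelled KspCre Tfam f/f replicate 2. Of 9 genes for receptors of fibronectin and periostin, 4 were lower and 5 were not called. Itga5, the classical fibronectin receptor subunit, was 1.87-fold lower (0.00167). Itgb1 was not called (log2 fold change -0.09, adjusted p = 0.617). The other lower genes were Itgb5, Itgav and Itgb3 (1.33-fold, 1.46-fold and 1.87-fold). Their calls were lost when any 1 library with the KspCre Tfam f/f label was left out.

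Targets of YAP and its TEAD partners, which share Ctgf as a known target, went both ways. Of 19 tested, 8 were lower and 4 higher in libraries labelled KspCre Tfam f/f, with a median log2 fold change of -0.52. Myof, a membrane repair protein, was 8.10-fold lower (adjusted p = 6.08e-05) and Ankrd1 10.4-fold lower (0.00040). Gadd45a, a stress-induced growth arrest gene, was 3.68-fold lower (0.00141), and Nt5e, a nucleotidase also found in proximal tubule and fibroblasts, was 3.02-fold higher (0.000363). Ctgf itself, at a log2 fold change of -0.26, lay between the median of this list and that of all genes. The 4 higher calls fell to 2 when any 1 library with the KspCre Tfam f/f label was left out, and to 2 with upper-quartile scaling.

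Of 14 other contractile genes, 4 were called higher and 3 lower in libraries labelled KspCre Tfam f/f. The called share was close to that over all tested genes (46.2%, with 21.3% higher and 24.9% lower). The median log2 fold change of the list was 0.35. Myh11, the smooth muscle myosin heavy chain, had 44.5, 38.5 and 33.7 normalized CPM in libraries labelled KspCre Tfam f/f, against 20.01, 19.0 and 18.3 in those labelled Tfam f/f (2.03-fold higher, adjusted p = 0.000879). Ppp1r12b, a myosin phosphatase subunit, was 1.601-fold higher (0.00149). Tpm1, a tropomyosin that many cells express, was 3.14-fold lower (0.00107) and Csrp1, a LIM-domain protein, 1.96-fold lower (0.0010). Of the factors that drive contractile genes, Mkl2 and Mkl1 were 1.39-fold and 1.67-fold lower (0.0104 and 0.0209), and Srf and Myocd were not called. The Mkl1 call did not hold without labelled KspCre Tfam f/f replicate 2 or 3 or labelled Tfam f/f replicate 1.

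Listed markers of the stromal cells that could carry the 9 genes had medians of opposite sign by cell type. Of 15 tested fibroblast markers, 7 were lower, 0 higher and 8 not called in libraries labelled KspCre Tfam f/f. Their median log2 fold change was -0.69. The collagen genes Col1a1, Col1a2 and Col3a1 were 2.72-fold, 1.81-fold and 2.61-fold lower (adjusted p = 0.00103, 0.00187 and 0.00195), and Thy1 was 2.42-fold lower (0.00536). Dcn, the proteoglycan gene that marks most fibroblasts, had 21.2 to 31.2 normalized CPM in libraries labelled KspCre Tfam f/f, against 20.1 to 44.4 in those labelled Tfam f/f, and was not called (0.351). Of 10 pericyte and mural markers, 6 were higher, Mcam was lower and 3 were not called, with a median log2 fold change of 0.56. Ren1, which encodes renin, was 2.98-fold higher (0.000892), and the potassium channel subunits Kcnj8 and Abcc9 were 2.62-fold and 2.97-fold higher (0.00349 and 0.0102). Rgs5 was 1.54-fold higher (0.00867). The call of Mcam was lost without each library in turn except labelled Tfam f/f replicate 1. The 7 lower fibroblast calls fell to 5 without labelled KspCre Tfam f/f replicate 2 or 3, or labelled Tfam f/f replicate 1 or 2. The 6 higher mural calls fell to 4 without replicate 1 of either label.

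Markers of other kidney cells differed in the same comparison. The summed level of 10 macrophage markers was 140 to 154 normalized CPM in libraries labelled KspCre Tfam f/f, against 192 to 601 in those labelled Tfam f/f, with 9 called lower and 1 not called. That of 8 proximal tubule markers was 39050 to 40674 in libraries labelled KspCre Tfam f/f, against 2304 to 11083 in those labelled Tfam f/f, with 7 called higher, and 2 without labelled Tfam f/f replicate 1. Endothelial markers summed to 247 to 260 in libraries labelled KspCre Tfam f/f, against 141 to 277 in those labelled Tfam f/f (1 of 6 higher, and 6 without labelled Tfam f/f replicate 2), and podocyte markers to 349 to 405 in libraries labelled KspCre Tfam f/f, against 183 to 285 in those labelled Tfam f/f (3 of 5 higher). Of 4 adipocyte markers, Cfd was lower (10.2-fold) and 3 were not called. The Cfd call was lost without replicate 1 or 2 of either label, and its fold ran from 3.94 to 38.4 over the libraries left out. Of 6 urothelium markers, 5 were higher and Krt20 was lower (138-fold, or 32.4-fold without labelled Tfam f/f replicate 3). The defining gene Upk1b had 2.49 to 3.92 in libraries labelled KspCre Tfam f/f, against 0.042 to 0.342 in those labelled Tfam f/f. Both folds rest on few reads in 1 group. Krt20 had 2 to 4 reads with the KspCre Tfam f/f label, and Upk1b 1 to 13 with the Tfam f/f label. The renal pelvis that urothelium lines has its own smooth muscle, and the part of this tissue in the values of Acta2, Tagln and Myh11 was not tested.

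**Figure D5:**
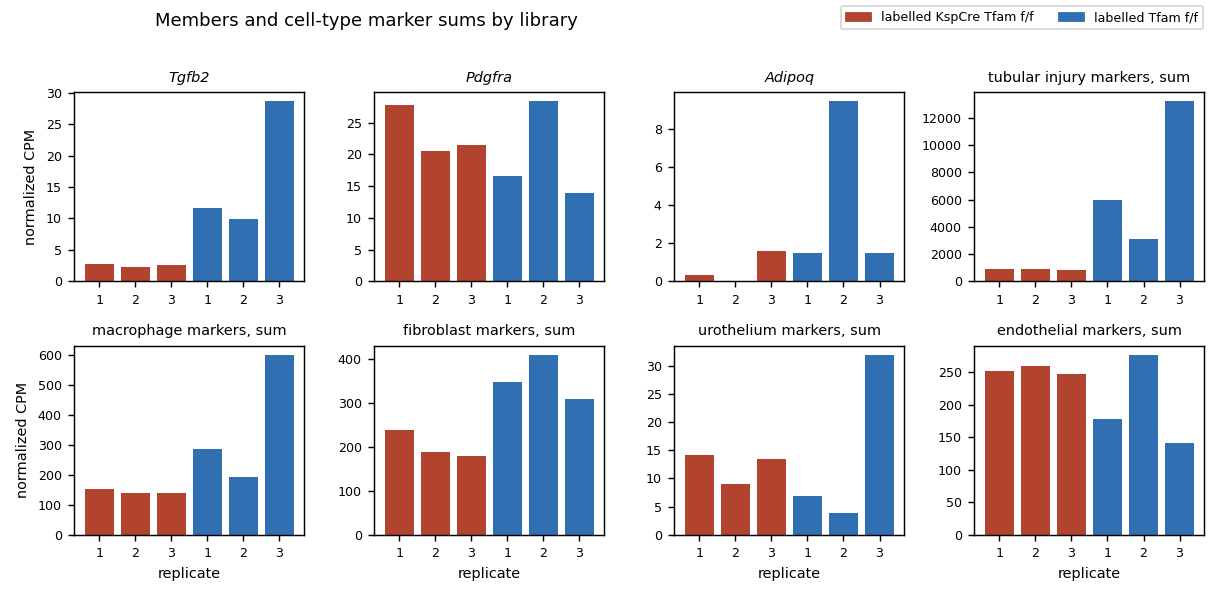
Normalized CPM in each library, with those labelled KspCre Tfam f/f (red) left of those labelled Tfam f/f (blue), of Tgfb2, Pdgfra and the adipocyte gene Adipoq, and the summed normalized CPM of marker lists. Labelled Tfam f/f replicate 3 is the highest for Tgfb2 (28.6), injury and macrophage markers, and labelled Tfam f/f replicate 2 for Pdgfra (28.3) and Adipoq (9.43). The urothelium sum of 32.1 in labelled Tfam f/f replicate 3 is mostly Krt20, at 30.0.

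The genes with the most similar profiles were found as the smallest root mean square distance of mean-centred log2 CPM over the 6 libraries, among 11269 genes of at least moderate level. The nearest to Tgfb2 were Clcf1 and Muc1, at distances of 0.17 each. Those to Fn1 were Aldh1b1 (0.14) and Slc38a1 (0.16), and those to Tgfb1 were Idua (0.03) and Ten1 (0.05). The profiles come from the same libraries as the calls, so a near gene tends to share the call by construction. Clcf1, Muc1, Aldh1b1, Slc38a1, Idua and Ten1 were called lower in libraries labelled KspCre Tfam f/f. Postn lay nearest to Lhfp (0.07) and Sowahc (0.08), and Ctgf to Cdc42ep4 (0.02) and Iqcb1 (0.03). Acta2 lay nearest to Spa17 (0.06) and Id3 (0.10), and Tagln to Grap (0.03) and Dlg3 (0.04). Pdgfra lay nearest to Gja1 (0.07) and Rsad2 (0.07), and Pdgfrb to Angptl2 (0.05) and Enpp4 (0.06). None of the nearest genes was another of the 9. Within the set, the closest pair was Tagln and Ctgf (0.14), and Acta2 and Tagln were 0.24 apart.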

How the data were processed

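Each deposited file holds the authors' raw counts, 1 value per gene, without normalization. FastQC, Trim Galore, STAR 2.4.1d, HTSeq 0.11.0 and the mm10 build are named in the submitters' processing notes. The annotation release and the counting strand were not given in the sources used here. Libraries were poly A+ selected and strand-specific, per the labels' protocols.

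Summary lines without a gene (16.0% to 20.4% of each file) were left out. The 9 genes and all lists were chosen with earlier results of these data known. Counts were tested in edgeR 4.0.16 under R 4.3.3 after filterByExpr (minimum count 10, minimum total 15), with TMM scaling and a robust quasi-likelihood fit over all 6 libraries. P-values were adjusted by Benjamini-Hochberg over 17308 genes and called below 0.05, and CPM used the same factors. Ratios used counts plus 0.5. Positions and exon lengths came from GENCODE M21, which held 54079 of the 54146 identifiers. The rule for naming took the 9 genes, Tfam, up to 4 called genes of smallest p in each list and the 2 nearest profiles of each gene. Others were named after their values were seen, where a short count or a comparison asked for them. Counting depth limits Tgfb2 and Postn most, at 68 and 96 reads in their lowest library. In simulated counts of 17060 genes, the test recovered 7.46% of 67 genes changed 1.5-fold, 52.2% of 67 changed 2-fold and 98.5% of 66 changed 4-fold. There were 7 false calls. The simulation changed far fewer genes than were called in the data. It also gave both labels the same spread between libraries, so these rates may not hold for the data. Alternatives were DESeq2 1.42.0, limma 3.58.1 voom, other scalings and filters, a replicate block and each library left out. Chi-square per degree of freedom between libraries of 1 group was 7.09 or more, so no library repeated another within sampling noise. 1 gene of the response list is not reported here.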

Additional observations from a re-analysis of the deposited data

How the results depend on the processing

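Fn1 and Tgfb2 were called lower under all 14 alternatives, at log2 fold changes of -3.22 to -2.66 and -3.18 to -2.09, and Tgfb1 under 13 of them. Scaling matters most for the uncalled genes. Total counts alone moved the median of all tested genes to -0.46 (-0.03 with TMM scaling) and upper-quartile factors to -0.10. With total counts alone, 7 of the 9 genes were called lower (Tagln at -0.54, Pdgfrb at -0.47 and Ctgf at -0.70 among them), Acta2 turned to -0.17 and Pdgfra to -0.17, and 1680 genes were called higher and 8519 lower, with 22 list genes higher. Relative to the median of all genes, Acta2 stood at 0.29 in both scalings and Pdgfra at 0.27 in the one and 0.29 in the other. Pdgfrb ran from -0.19 to 0.17 with each library left out, positive without labelled Tfam f/f replicate 2. The cause of these changes was not tested.

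Leaving out each library in turn, 2276 to 4652 genes were called higher and 2822 to 4942 lower (fewest without labelled KspCre Tfam f/f replicate 2, most without labelled Tfam f/f replicate 2), 0 to 1 of the 9 genes higher (1 without labelled Tfam f/f replicate 2) and 2 to 4 lower (2 when labelled KspCre Tfam f/f replicate 3 was left out), and 25 to 53 list genes higher (40 with all). The number as a block gave 3 of the 9 genes lower, with the Postn call lost, and 3227 and 3586 genes over all. Same-numbered libraries did not deviate together (correlations of -0.17, -0.07 and -0.07, and 0 of 3 matched their own number best). With 3 libraries of each label, this check cannot exclude that the numbers pair the samples. The 4 within-library ratios kept their sign without each library and with an offset of 0.1.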
